A study of Homo sapiens with 10 samples.

Results

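ABC transporters are the proteins that couple the binding and hydrolysis of ATP to movement of a substrate across a membrane. The members described here are the 42 genes whose platform symbol, alone on its probe set, reads ABC, a subfamily letter from A to G and a number. They were measured by 96 probe sets, and each gene was read from its brightest probe set, by the mean of all 10 arrays. They are 42 of the 19775 genes measured, and neither the choice of genes nor that of probe sets used the difference between the groups. The arrays measured total RNA of K562, a human erythroleukaemia line from a patient with chronic myeloid leukaemia, on 5 arrays, and of the microvesicles this line released on another 5. The labels name no agent, genotype or other line for either group. Microvesicles bud from the plasma membrane and enclose RNA of the parent cell. The labels speak of 5 independent experiments without tying a vesicle preparation to a culture, and p-values therefore reflect the spread among preparations, which may be technical.

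The subfamilies have different tasks. ABCA and most ABCG proteins move sterols and phospholipids. The ABCB group holds drug and bile salt pumps of the plasma membrane beside pumps of mitochondria and lysosomes. ABCC proteins export glutathione, glucuronide and nucleotide conjugates, or regulate potassium channels. ABCD proteins work in peroxisomes and lysosomes. ABCE1 and the ABCF proteins keep the ATP-binding domains but have no membrane part and act on ribosomes. ABCB1, ABCC1 and ABCG2 are best known in leukaemia cells as exporters of cytotoxic drugs.

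All 8 measured erythroid markers of K562 lay above the median of their array on all 10 arrays, 3 of them lower and 1 higher in microvesicles. This mark is not specific, since 16 of 38 measured markers of other cell types also exceeded it on all cell arrays. The mean level of the erythroid markers was 8.57 to 8.95 on cell arrays and 7.80 to 8.64 on microvesicle arrays. Over those 38 markers, of platelets, lymphocytes, monocytes, fibroblasts, endothelium and hepatocytes, the list means lay between 3.03 and 4.89 in cells and between 3.61 and 5.23 in microvesicles. Of these 38 genes 23 rose and 4 fell in microvesicles. Most were dim, and of the 16 with a mean up to 4, 11 rose, beside 60.7% of all genes at that level. After loess normalization by level 6 of the 38 rose and 4 fell, beside 19.2% and 22.3% of all genes. Here loess means that each array was fitted against the mean array over its range of values. The excess of the 3' control probe set over the 5' one can grow as RNA is less intact. For ACTB this excess was 2.26 to 2.57 in cells and 2.72 to 3.64 in microvesicles. For GAPDH the difference was 0.37 to 0.54 in cells and 0.50 to 0.83 in microvesicles, where the groups overlapped. Microvesicle arrays also varied more. The median SD of the ABC genes was 0.14 in cells and 0.46 in microvesicles, and 41 of the 42 varied more in microvesicles. The part of RNA integrity and of these marker shifts in the results below was not tested.

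ABC transporter genes moved in both directions. In microvesicles 14 of the 42 were lower, 15 were higher and 13 did not pass (limma, adjusted p under 0.05 over all genes). Over all genes 31.2% were lower and 35.5% higher, 66.6% in either direction. The median change was 0.34 for the ABC genes and 0.20 for all genes (microvesicles minus cells, log2 scale). At least 2-fold lower were 10 members, against 19.8% of all genes, and at least 2-fold higher were 3, against 11.2%. The groups did not overlap in 22 members, 12 lower and 10 higher, and in 49.9% of all genes (26.1% lower and 23.8% higher). The share of members called is close to that of all genes.

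**Figure D1:**
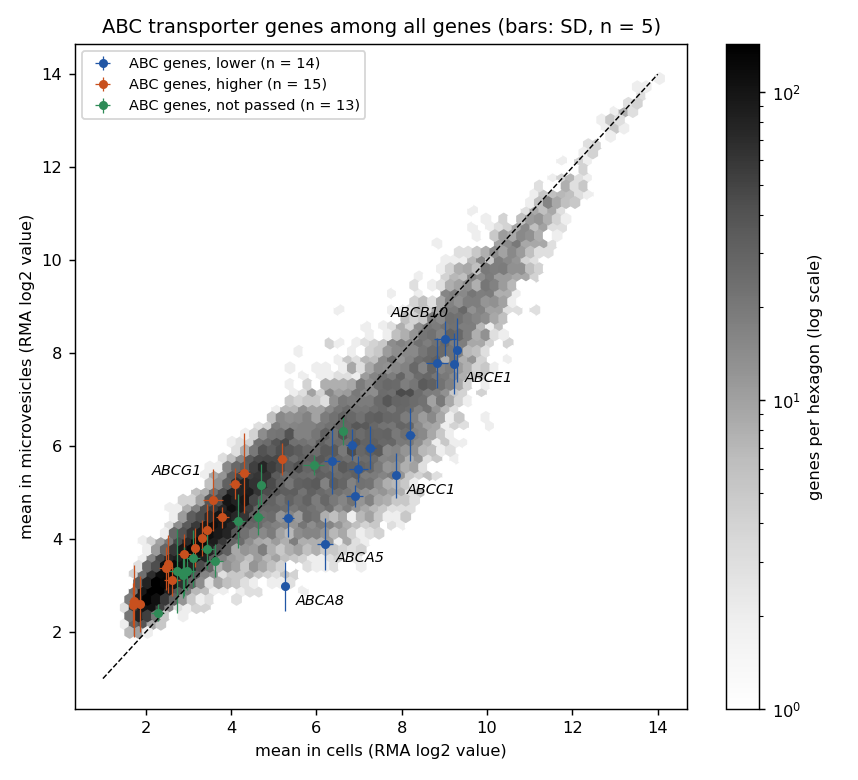
Mean log2 value of each gene in cells (horizontal axis) and in microvesicles (vertical axis), with all 19775 genes as grey hexagons and the 42 ABC transporter genes as points with SD (n = 5 arrays per group). The 14 lower members have cell means of 5.27 or more, and the 15 higher members have cell means of 5.20 or less. The 13 that did not pass have cell means of 2.28 to 6.63.

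The direction followed the signal in cells. All 14 members that fell had a mean of 5.27 to 9.30 in cells, and their values exceeded the array median on every cell array. All 15 members that rose had a cell mean of 1.70 to 5.20, and 2 of them exceeded the array median on every cell array. The 13 members that did not pass had cell means of 2.28 to 6.63, and 4 of them exceeded the array median on every cell array. The array median, taken over all probe sets, served as a mark for dim signal because the values carry no detection call. Of the 42 members 11 lay below it on all 10 arrays. The same order held among all genes. Of the 18 members with a mean over 10 arrays of up to 4, 10 rose and 0 fell, beside 60.7% and 2.13% of all genes at that level. Of the 9 members from 4 to 5, 4 rose and 2 fell, beside 49.5% and 13.5%, and of the 4 from 5 to 6, 1 rose and 2 fell, beside 31.7% and 37.9%. Of the 7 members between 6 and 8, 0 rose and 6 fell, beside 9.44% and 64.5%, and of the 4 above 8 all 4 fell, beside 6.11% of genes higher and 59.5% lower. After loess, which lessens the part of the change that depends on level, 4 members were higher and 12 lower, beside 19.2% and 22.3% of all genes (41.5% in all). Some of that part stayed, since the median change of all genes was 0.12 at 4 to 5 and -0.19 at 6 to 8. Falls after loess were 2 of 18 members up to 4, 3 of 9 at 4 to 5 and 2 of 4 at 5 to 6. All genes there gave 9.15%, 19.8% and 33.2%. At 6 to 8 they were 4 of 7 and above 8 they were 1 of 4, beside 35.5% and 23%. The rises were 3 at 4 to 5 and 1 at 5 to 6, beside 19.3% and 31.4%. With the loess fitted over all probe sets 6 were higher and 10 lower, beside 26.9% and 18.3% (45.2% in all). A second quantile normalization gave 3 higher and 9 lower, beside 20.2% and 18.7% (38.9% in all). Centring on array medians gave 14 higher and 15 lower, beside 29.4% and 33.2% (62.6% in all). Of the 14 falls, 9 passed in the same direction after loess, and 8 did so under all the scalings tried. Those 8 were ABCA5, ABCA8, ABCB6, ABCC1, ABCC4, ABCC5, ABCD4 and ABCE1. Of the 15 rises, 4 passed after loess and 3 under all the scalings, ABCB9, ABCC3 and ABCG1. The deposited arrays differed in spread, with an SD over genes of 2.53 to 2.57 in cells and 2.06 to 2.18 in microvesicles. The values carry no measure of total RNA, so fewer vesicles that carry a transcript, less of it per vesicle and a change in total RNA cannot be told apart.

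**Figure D2:**
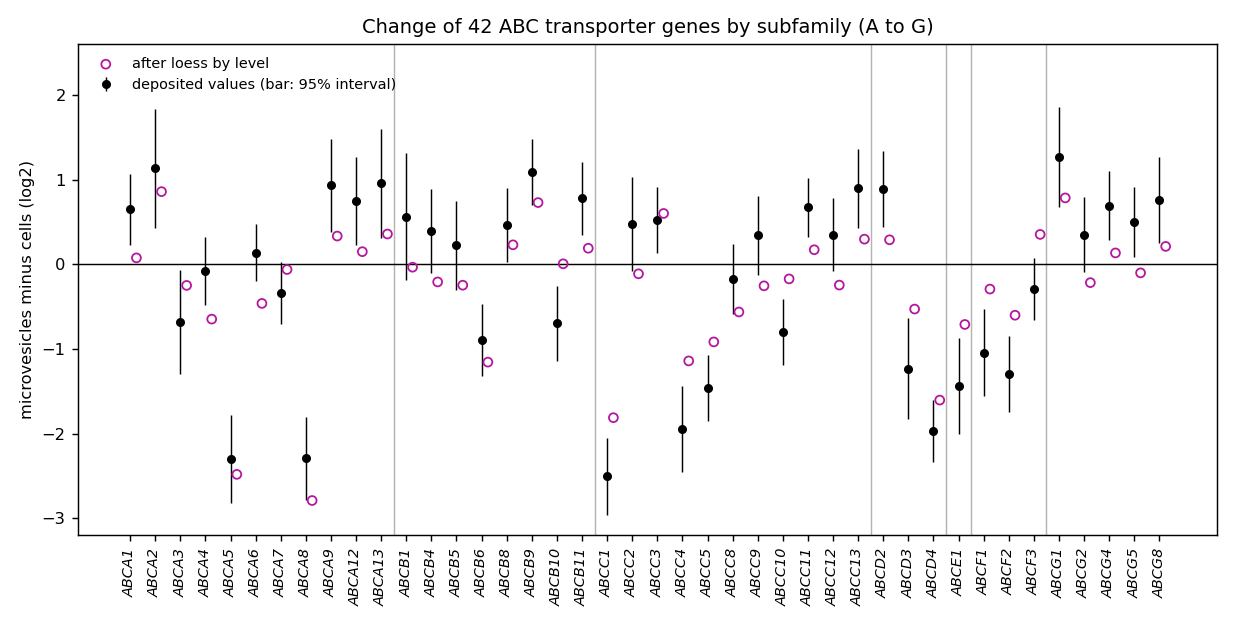
Change of each ABC transporter gene, microvesicles minus cells on the log2 scale, grouped by subfamily with grey dividers. Filled points with bars are the deposited values with the limma 95% interval (5 arrays per group), and open circles are the same genes after loess by level. The falls of ABCC1, ABCA5, ABCA8 and ABCD4 stay below -1.5 after loess, while most rises move towards 0.

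Among the ABCC genes, 4 of 11 members fell and 3 rose, beside 31.2% and 35.5% of all genes. In addition to exporters of conjugates, the ABCC genes include the channel regulators ABCC8 and ABCC9 and the pseudogene ABCC13. ABCC1, the multidrug resistance protein that exports glutathione conjugates, had the largest fall of any member in the deposited values, whereas ABCA8 and ABCA5 fell more after loess or a second quantile normalization and ABCC10 with the mean of probe sets. ABCC1 stood at 7.86, 7.85, 7.82, 7.91 and 7.92 on the 5 cell arrays and at 4.62, 5.57, 5.42, 5.31 and 5.92 on the 5 microvesicle arrays. Every microvesicle array lay well below every cell array, and microvesicle replicate 1 was the lowest. The group means were 7.87 ± 0.04 and 5.37 ± 0.48 (SD, n = 5 each), a change of -2.51 ± 0.21 (SE, 5.68-fold lower, limma adjusted p = 1.12e-06). After loess the change was -1.81. In rank among all genes of its array, ABCC1 went from the 79.6th percentile in cells to the 55.8th in microvesicles. ABCC4 exports cyclic nucleotides and nucleotide drugs. ABCC4 stood at 8.01, 8.29, 8.25, 8.15 and 8.28 on the 5 cell arrays and at 6.30, 6.55, 6.77, 5.31 and 6.32 on the 5 microvesicle arrays. The groups were apart, with microvesicle replicate 4 the lowest. ABCC4 changed by -1.95 ± 0.24 (SE, 3.85-fold lower, limma adjusted p = 1.85e-05) and by -1.14 after loess. ABCC5, a second exporter of cyclic nucleotides, gave a similar picture. ABCC5 stood at 6.91, 6.84, 6.72, 7.19 and 7.23 on the 5 cell arrays and at 5.57, 5.28, 5.45, 5.30 and 5.97 on the 5 microvesicle arrays. Its change was -1.46 ± 0.18 (SE, limma adjusted p = 2.00e-05) and -0.92 after loess. ABCC10, a broad lipophilic anion pump, changed by -0.80 ± 0.18, and the value after loess was -0.17 and did not pass. That holds for the probe set used here. The other ABCC10 probe set was brighter in cells (8.16 against 6.83). It changed by -3.72, and by -3.02 after loess by level of the probe sets. The 3 that rose included 1 gene, ABCC3, above the array median on all 10 arrays. ABCC3, an exporter of bile acid conjugates, went from 5.20 ± 0.12 to 5.72 ± 0.34 (SD, n = 5 each), overlapping by group, with a change of 0.52 and of 0.60 after loess, and the call was lost when cells replicate 5 was left out (adjusted p = 0.0538). ABCC11 and ABCC13, of which the second is a transcribed pseudogene in RefSeq, changed by 0.67 and 0.90, and by 0.17 and 0.30 after loess, where neither passed. Without microvesicle replicate 5, ABCC2 and ABCC9 passed upwards (adjusted p = 0.0395 and 0.0104), as did ABCC12 without replicate 2 (0.0453). The channel regulators ABCC8 and ABCC9 did not pass (-0.17 and 0.34), nor did ABCC2 (0.47) and ABCC12 (0.35). After loess ABCC8 was lower (-0.56, adjusted p = 0.0289), and the signs of ABCC2, ABCC9 and ABCC12 turned (-0.11, -0.26 and -0.25).

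The other drug exporters gave signals near the bottom of the range. ABCB1 encodes P-glycoprotein. ABCB1 stood at 3.07, 2.67, 2.44, 2.51 and 3.04 on the 5 cell arrays and at 3.94, 3.70, 2.51, 2.19 and 4.20 on the 5 microvesicle arrays. The groups overlapped, since microvesicle replicates 3 and 4 lay among or below the cells and replicates 1, 2 and 5 above them. The change of 0.56 ± 0.35 did not pass (95% interval -0.19 to 1.32, limma adjusted p = 0.166), and it passed without microvesicle replicate 4 (0.84, adjusted p = 0.0283). After loess ABCB1 stood at -0.04. ABCG2, the breast cancer resistance protein, was equally undecided. ABCG2 stood at 3.46, 3.37, 3.70, 3.28 and 3.42 on the 5 cell arrays and at 3.34, 3.31, 4.26, 4.01 and 4.05 on the 5 microvesicle arrays. Its change was 0.35 ± 0.21 (95% interval -0.10 to 0.79, limma adjusted p = 0.148), with a negative sign after loess (-0.22). Both genes lay below the array median on every cell array, and ABCB1 also on every microvesicle array, so a low transcript level in either group is not well measured here.

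**Figure D3:**
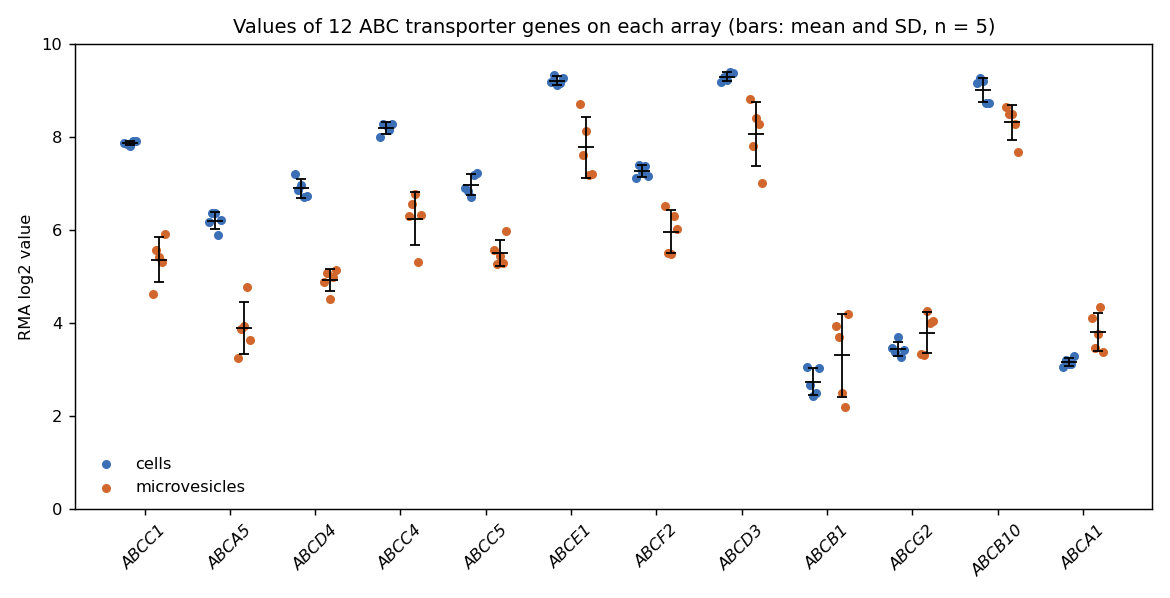
Log2 value on each of the 10 arrays for 12 ABC transporter genes, cells in blue and microvesicles in orange, with mean and SD (n = 5 each) in black. From ABCC1 to ABCD3 are 8 falling members chosen by a rule that required groups without overlap. ABCB1, ABCG2, ABCB10 and ABCA1 are shown whatever their values, and ABCB1 and ABCG2 overlap at low values.

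ABCA genes, the lipid transporters, included ABCA5 and ABCA8, with falls near that of ABCC1, and several dim genes that were higher. Of 11 members 3 fell and 5 rose, beside 31.2% and 35.5% of all genes. ABCA5 is a transporter of late endosomes and lysosomes. ABCA5 stood at 6.18, 6.36, 6.36, 5.90 and 6.22 on the 5 cell arrays and at 3.26, 3.89, 3.94, 4.78 and 3.64 on the 5 microvesicle arrays. All microvesicle values lay below all cell values, and only replicate 4, the highest, exceeded its array median. ABCA5 changed by -2.30 ± 0.24 (SE, 4.94-fold lower, limma adjusted p = 5.74e-06) and by -2.48 after loess. ABCA8, which takes part in cholesterol efflux, changed by -2.29 ± 0.23 (4.88-fold, limma adjusted p = 3.84e-06), from 5.27 ± 0.09 to 2.98 ± 0.54 (SD, n = 5 each), and by -2.79 after loess. Its microvesicle values were below the array median on every array, so the size of the fall is uncertain. ABCA3, the phospholipid pump of surfactant-making cells, changed by -0.68 ± 0.28 (adjusted p = 0.047) but overlapped between groups and lost the call without any of the 5 cell arrays or microvesicle replicate 2, 4 or 5 (adjusted p from 0.0607 to 0.115). ABCA1, which loads cholesterol and phospholipid onto apolipoprotein, rose. ABCA1 stood at 3.06, 3.21, 3.12, 3.12 and 3.30 on the 5 cell arrays and at 4.11, 3.46, 3.78, 4.35 and 3.39 on the 5 microvesicle arrays. All microvesicle values lay above all cell values, though the lowest, 3.39, was close to the highest in cells, 3.30. The change of 0.65 ± 0.20 (limma adjusted p = 0.0104) was 0.08 after loess and no longer passed. ABCA2 rose by 1.13 ± 0.33, with microvesicle replicate 1 (4.11) below all cell arrays, and by 0.86 after loess. ABCA9, ABCA12 and ABCA13 rose by 0.93, 0.75 and 0.96 (ABCA13 by 0.62 without microvesicle replicate 4), and after loess they stood at 0.33, 0.15 and 0.36 and did not pass. ABCA4, ABCA6 and ABCA7 did not pass, with changes of -0.08, 0.14 and -0.34, though ABCA7 was lower with median centring (-0.43). After loess ABCA4 (-0.65) and ABCA6 (-0.46) were lower, the second with its sign turned.

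The ABCG genes lay below the array median on every cell array. Of 5 members 4 rose and 0 fell. All genes gave 60.7% higher and 2.13% lower at a mean up to 4, and 49.5% and 13.5% from 4 to 5. After loess 1 member rose, beside 19.2% of all genes. That one was ABCG1, which moves cholesterol to lipoproteins and had the largest rise of any member in the deposited values. After loess ABCA2 rose more, and with the mean of probe sets ABCC13 did. Its group means were 3.57 ± 0.23 and 4.84 ± 0.66 (SD, n = 5 each), with a change of 1.27 ± 0.27 (2.41-fold, limma adjusted p = 0.00142) and 0.78 after loess. ABCG1 stood at 3.58, 3.37, 3.33, 3.88 and 3.70 on the 5 cell arrays and at 5.15, 3.72, 4.95, 5.46 and 4.92 on the 5 microvesicle arrays. Microvesicle replicate 2 fell among the cell arrays and the other 4 above them. ABCG4 changed by 0.69, and the sterol half-transporters ABCG5 and ABCG8 by 0.50 and 0.76. After loess these were 0.13, -0.10 and 0.21, none past the threshold. ABCG5 also lost the call with centring on array medians (0.40, adjusted p = 0.0832) and without any of 5 single arrays (cells replicate 1, 2 or 4, microvesicle replicate 4 or 5, adjusted p from 0.0631 to 0.0833).

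Of the 8 ABCB genes 2 fell and 2 rose, beside 31.2% and 35.5% of all genes. ABCB10 is a pump of the inner mitochondrial membrane that supports haem synthesis, and it was among the brightest members. ABCB10 stood at 9.16, 9.26, 9.20, 8.73 and 8.72 on the 5 cell arrays and at 8.64, 8.49, 8.49, 8.28 and 7.67 on the 5 microvesicle arrays. The lowest cell values, replicates 4 and 5, were close to the highest microvesicle value, and the groups did not overlap. The fall of 0.70 ± 0.21 (limma adjusted p = 0.00955) did not remain after loess (0.0050) or after a second quantile normalization (0.04). Its rank hardly moved, from percentile 89.3 in cells to 89.6 in microvesicles. ABCB6, a porphyrin transporter that carries the Lan blood group, fell by 0.90 ± 0.20 and by 1.16 after loess. ABCB9, a lysosomal peptide pump, rose from 4.10 ± 0.14 to 5.19 ± 0.34 (SD, n = 5 each), a change of 1.09 ± 0.18 (limma adjusted p = 0.000207) and 0.73 after loess. Its other probe sets were nearly as bright, with means over 10 arrays of 4.48 and 4.31 against 4.64, and did not pass (0.06 and 0.05). With the mean of probe sets the change was 0.40, near the threshold (limma adjusted p = 0.0497). ABCB11, the bile salt export pump, rose by 0.78, and after loess the 0.19 did not pass. ABCB4, ABCB5 and ABCB8 did not pass (0.39, 0.22 and 0.47), and after loess the first 2 had negative signs (-0.21 and -0.25). ABCB8, a mitochondrial pump, passed without microvesicle replicate 1 or 2 (adjusted p = 0.0405 and 0.00974), and ABCB5 without replicate 2 (0.0499). ABCB8 also passed after loess over all probe sets (0.57).

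Of the 3 ABCD genes 2 fell and 1 rose, beside 31.2% and 35.5% of all genes. ABCD4 releases cobalamin (vitamin B12) from lysosomes. ABCD4 stood at 7.21, 6.85, 6.97, 6.71 and 6.73 on the 5 cell arrays and at 4.89, 5.07, 4.53, 5.00 and 5.15 on the 5 microvesicle arrays. The groups were far apart and the spread in microvesicles was small, with replicate 3 the lowest. ABCD4 changed by -1.97 ± 0.17 (SE, 3.91-fold lower, limma adjusted p = 1.40e-06) and by -1.60 after loess. ABCD3, an abundant peroxisomal membrane protein that imports branched fatty acids and bile acid precursors, had a wide spread. ABCD3 stood at 9.18, 9.30, 9.23, 9.40 and 9.38 on the 5 cell arrays and at 8.82, 7.81, 8.41, 8.29 and 7.0 on the 5 microvesicle arrays. Microvesicle replicate 1 came close to the cells and replicate 5 was lowest. The change of -1.23 ± 0.27 (limma adjusted p = 0.00176) was -0.53 after loess, where it did not pass. ABCD2, a dim peroxisomal relative, rose by 0.89, and after loess 0.29 did not pass.

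The members without a membrane part were bright, and 3 of 4 fell. Among all genes, 64.5% fell at a mean of 6 to 8 and 59.5% above 8. ABCE1 splits ribosomes into subunits after termination. ABCE1 stood at 9.18, 9.34, 9.12, 9.16 and 9.26 on the 5 cell arrays and at 8.72, 7.63, 8.14, 7.19 and 7.21 on the 5 microvesicle arrays. The values in microvesicles ran from 7.19 to 8.72, all below the cells. Its change was -1.44 ± 0.26 (SE, 2.71-fold lower, limma adjusted p = 0.00042) and -0.71 after loess (adjusted p = 0.018). ABCF2 behaved alike. ABCF2 stood at 7.12, 7.40, 7.26, 7.39 and 7.17 on the 5 cell arrays and at 6.51, 5.52, 5.49, 6.31 and 6.02 on the 5 microvesicle arrays. It changed by -1.29 ± 0.21 (limma adjusted p = 0.000181) and by -0.60 after loess (adjusted p = 0.0324), but it did not pass after a second quantile normalization (-0.62) or after loess over all probe sets (-0.47). ABCF1, a factor of translation initiation, changed by -1.04 ± 0.24, and the -0.29 after loess did not pass. ABCF3 did not pass (-0.29, 95% interval -0.66 to 0.07) and had a positive sign after loess (0.35). Without microvesicle replicate 1 it passed downwards (-0.40, adjusted p = 0.0332), and after loess over all probe sets upwards (0.51, adjusted p = 0.0193).

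Other probe sets of a gene gave a mixed picture. Of the 96 probe sets 40 were higher and 25 lower (limma, adjusted over all probe sets of the table). The share called over all probe sets was not counted, so these counts have no background beside them. Of the 29 members with more than 1 probe set, 16 had 2 or more called probe sets in 1 direction, 10 had a single called one, 2 had calls in both directions and 1 had none. Over all genes with more than 1 probe set, 13.5% were called in both directions. The 2 were ABCA8, whose next probe set rose by 0.83, and ABCB6, whose dimmer probe set rose by 0.76. In 3 further members a called probe set opposed the brightest one, which had not passed. These were ABCB8 (-0.63 against 0.47), ABCC8 (1.11 against -0.17) and ABCA4 (0.77 against -0.08). With the mean over probe sets ABCA8 stood at -0.32 and ABCB6 at -0.07, and neither passed. The mean also moved ABCA5 to -0.90, ABCD4 to -0.87, ABCF2 to -0.55, ABCB9 to 0.40 and ABCC10 to -2.26, all still past the threshold, and ABCB4 (0.72), ABCC9 (0.62) and ABCC12 (0.85) passed upwards. ABCC4 fell in all 4 of its probe sets, by 0.57 to 2.36. The second probe set of ABCC1 fell by 1.24, and the second one of ABCE1 by 1.61. The probe sets of ABCC10 were far apart though both fell. The one used here, of the x type that Affymetrix marks as prone to cross-hybridisation, changed by -0.80, while the other, only slightly dimmer on average, went from 8.16 in cells to 4.44 in microvesicles, a change of -3.72 ± 0.25. That is the largest fall of all 96 probe sets. The probe set used for ABCC3 is of the x type too, and 4 of the 5 ABCC3 probe sets were higher. ABCD4 and ABCA5 each had 1 dim probe set that did not pass (0.24 and 0.50). ABCG1 rose in all 4 of its probe sets, by 0.53 to 1.27. Apart from the brightest they were dim, with means over 10 arrays of 2.61, 2.35 and 2.18. After loess by level of the probe sets these dim ones stood at 0.32, 0.18 and -0.03. Of all genes with a mean up to 4, 60.7% rose.

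**Figure D4:**
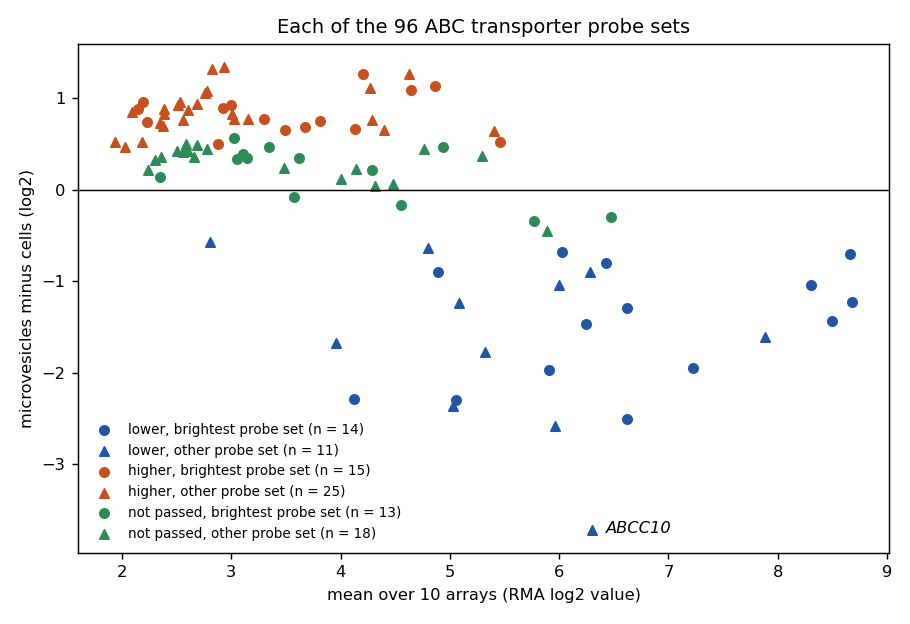
Change of each of the 96 ABC transporter probe sets (microvesicles minus cells, log2) against its mean over 10 arrays, circles for the probe set used per gene and triangles for the others. Colours give the call after adjustment over all probe sets, 25 lower, 40 higher and 31 not passed. The share called over all probe sets was not counted. The labelled triangle is the second probe set of ABCC10 at -3.72.

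The sequence just upstream was described for members of each call. RefSeq promoter entries (GRCh38.p14) were found for 33 of the 42 members, and the 250 bases before the annotated start were read on the gene's strand. The windows of the neighbours ABCG5 and ABCG8, which start in opposite directions, overlap. Upstream of the members that fell (12 of 14 matched), the median count of CG dinucleotides was 27.5, with a range of 16 to 42. Upstream of the members that rose (12 of 15) it was 7.5, with a range of 0 to 19, and for those that did not pass (9 of 13) it was 4, with a range of 1 to 31. The median over all 35116 promoters was 11. These entries outnumber the 19775 genes measured, whereas each matched member has 1 window, so the sets are not alike. The letters GGGCGG, on either strand, were present in 10 of the 12 windows of falling members, in 4 of the 12 of rising members, in 4 of the 9 others and in 42.6% of all promoters. These letters include a CG, so both counts overlap. TATAAA, on either strand, was present in 1 of 12, 2 of 12 and 1 of 9 windows and in 10.7% of all promoters. Members that fell were also the brighter ones in cells, and the part of level in this contrast was not tested. It is a description of members sorted by their change, with no test.

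**Figure D5:**
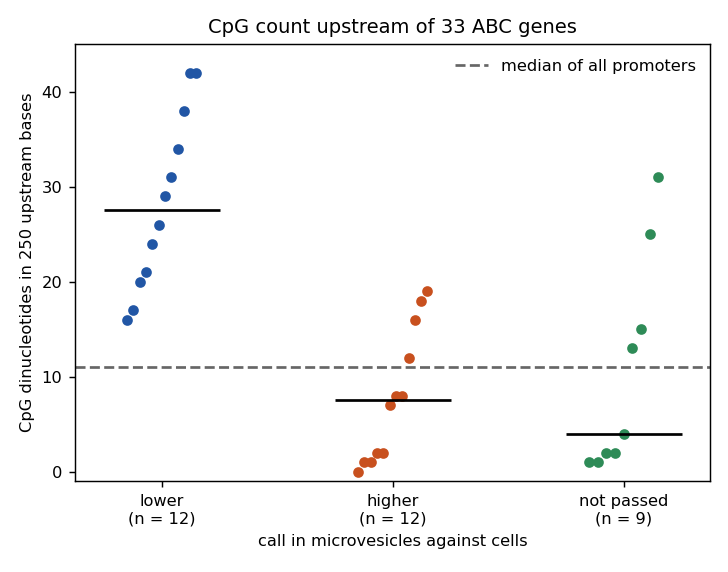
Number of CpG dinucleotides in the 250 bases upstream of 33 ABC transporter genes, sorted by the call of the gene in microvesicles against cells, with the group median as a black line. The lower members lie at 16 to 42 and the higher members at 0 to 19. The dashed line at 11 is the median of all 35116 promoter entries, which outnumber the genes measured.

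The windows of ABCA5 and ABCA9, which lie in the same cluster of ABCA genes, and of ABCC4 and ABCC11, both conjugate pumps, show both kinds. They stand at the ends of the ranges and are not typical. Falling members ran from 16 to 42 CG dinucleotides and rising members from 0 to 19, so the ranges meet. ABCA5 (chr17:69327134-69327383, minus strand) and ABCC4 (chr13:95301452-95301701, minus strand) fell and hold 42 CG dinucleotides each. ABCA9 (chr17:69060928-69061177, minus strand) and ABCC11 (chr16:48247540-48247789, minus strand) rose and hold 1 and 0. Neither rise passed after loess (0.33 and 0.17). Capitals mark each CG, and the sequences run 5′ to 3′ up to the base before the annotated start.
ABCA5: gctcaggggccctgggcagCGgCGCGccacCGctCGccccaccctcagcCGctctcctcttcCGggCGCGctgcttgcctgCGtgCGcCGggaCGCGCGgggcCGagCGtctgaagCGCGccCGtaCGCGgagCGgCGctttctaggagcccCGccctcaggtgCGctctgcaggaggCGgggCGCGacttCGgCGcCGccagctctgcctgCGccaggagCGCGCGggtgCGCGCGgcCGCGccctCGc
ABCA9: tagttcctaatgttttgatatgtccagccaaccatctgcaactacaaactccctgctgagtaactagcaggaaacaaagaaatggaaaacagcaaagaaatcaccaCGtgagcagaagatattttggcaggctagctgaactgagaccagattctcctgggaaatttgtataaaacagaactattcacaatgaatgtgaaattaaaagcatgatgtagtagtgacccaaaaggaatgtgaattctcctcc
ABCC4: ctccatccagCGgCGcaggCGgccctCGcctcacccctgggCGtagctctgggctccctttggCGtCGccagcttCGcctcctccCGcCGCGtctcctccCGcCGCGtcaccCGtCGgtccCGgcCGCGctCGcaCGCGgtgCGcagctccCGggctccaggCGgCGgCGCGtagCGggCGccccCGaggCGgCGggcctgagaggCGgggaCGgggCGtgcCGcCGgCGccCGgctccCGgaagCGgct
ABCC11: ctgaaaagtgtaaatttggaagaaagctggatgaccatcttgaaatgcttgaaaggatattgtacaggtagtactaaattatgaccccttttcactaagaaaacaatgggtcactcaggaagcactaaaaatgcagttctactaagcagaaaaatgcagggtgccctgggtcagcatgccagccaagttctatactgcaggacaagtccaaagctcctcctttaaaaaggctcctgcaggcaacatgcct

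Of the 91 measured genes that work with ABC proteins, 48 fell and 13 rose (median -0.51). Most were bright, and of the 44 with a mean above 8, 26 fell and 2 rose, beside 59.5% and 6.11% of all genes at that level, while of the 26 between 6 and 8, 19 fell and 1 rose, beside 64.5% and 9.44%. The counts of falls are thus near those of all genes as bright. Loess turned this into 22 falls and 20 rises (median -0.08), beside 22.3% and 19.2% of all genes. Several named partners moved by more than 1.5 times with the mean of probe sets, to -1.12 for LMBRD1, 0.64 for PEX5, 0.28 for PEX16 (not passed), -0.94 for SREBF1, 0.66 for LCAT, -0.89 for MGST1, -0.60 for FECH, -1.63 for HBS1L, -0.76 for EIF2AK4 and 0.76 for CFTR. The partner lists come from textbook roles. The same shares of all genes stand beside the counts of each list below. For cobalamin, the substrate of ABCD4, 6 of 7 partner genes fell and 0 rose, and 5 fell after loess. LMBRD1, the lysosomal partner that ABCD4 needs, changed by -2.35 ± 0.18 (-1.54 after loess), and methionine synthase, MTR, by -2.13 ± 0.24 (-1.33 after loess). Peroxisome partners of the ABCD proteins had 6 falls and 2 rises among 10, and 5 and 4 after loess. The fatty acyl-CoA ligases SLC27A2 and ACSL1 changed by -3.03 ± 0.21 and -1.99 ± 0.23, whereas the import receptor PEX5 rose by 1.27 ± 0.14 (1.97 after loess) and the membrane biogenesis factor PEX16 by 0.48 ± 0.18. PEX16 did not pass with median centring (adjusted p = 0.072) or without any of 6 single arrays (0.056 to 0.069), and stood at 1.29 after loess.

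Genes of cholesterol handling, the setting of ABCA1 and ABCG1, split into 7 falls and 4 rises among 14, and 4 and 4 after loess. SOAT1, which esterifies cholesterol, changed by -3.70 ± 0.25 (-3.16 after loess) and the sterol-response factor SREBF1 by -2.86 ± 0.24 (-2.25 after loess). RXRA, the partner of the oxysterol receptors, rose by 1.77 ± 0.24 (2.18 after loess), and the plasma enzyme gene LCAT by 1.29 ± 0.18. For the glutathione genes that supply ABCC pumps, 7 of 16 fell and 1 rose, and 3 fell and 3 rose after loess. Glutathione reductase, GSR, changed by -2.06 ± 0.20 and the microsomal transferase MGST1 by -1.51 ± 0.25, while the dim transpeptidase gene GGT1 rose by 0.81 ± 0.23 (0.29 after loess, not passed). Iron-sulfur and haem genes of mitochondria had 5 falls and 2 rises among 12, and 1 fall and 5 rises after loess. The cysteine desulfurase NFS1 changed by -1.53 ± 0.25 and ferrochelatase, FECH, by -0.995 ± 0.17 (-0.21 after loess, not passed). LYRM4 and GFER rose by 0.39 and 0.50, and by 0.96 and 0.85 after loess, but neither passed with median centring (adjusted p = 0.094 and 0.0706) or without some single arrays.

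Partners of ABCE1 in termination and ribosome recycling had 5 falls and 1 rise among 9. After loess 0 fell and 2 rose. The rescue factors PELO and HBS1L changed by -0.97 ± 0.34 (-0.58 without microvesicle replicate 2) and -0.93 ± 0.20, with values of -0.19 and -0.31 after loess that did not pass, and the dim termination factor GSPT2 by 0.93 ± 0.18 (0.33 after loess, not passed). Initiation and stress partners of the ABCF proteins fell in 9 of 10 genes and rose in 0, with 2 and 1 after loess. These lists are mostly bright. Of all genes with a mean of 6 to 8, 64.5% fell, and of those above 8, 59.5%. After loess 22.3% of all genes fell and 19.2% rose. The kinase EIF2AK4 changed by -1.27 ± 0.17 and its activator GCN1 by -1.26 ± 0.25 (-0.53 after loess, not passed). Among partners of drug exporters 2 of 8 fell, MSN (-0.99 ± 0.17) and PIM1 (-0.57 ± 0.14), and 2 rose, NR1I3 (0.76 ± 0.23) and PDZK1 (0.64 ± 0.21). After loess 1 fell and 1 rose, and NR1I3 (0.17) and PDZK1 (0.04) did not pass. PIM1 had a positive sign after loess (0.03) and did not pass. The ABC proteins with other names gave 1 rise among 3, the chloride channel CFTR (1.22 ± 0.28, from 2.85 in cells, 0.64 and not passed after loess). The peptide transporters TAP1 (0.15, and -0.08 after loess) and TAP2 (0.48) did not pass. Of the potassium channel subunits that pair with ABCC8 and ABCC9, KCNJ8 changed by -1.04 ± 0.23 (-0.94 after loess) and KCNJ11 did not pass (0.52).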

How the data were processed

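Total RNA of 5 K562 cell preparations and 5 microvesicle preparations was measured on Affymetrix arrays. The deposited values are log2 expression per probe set made by the authors with RMA, per the submitters' processing notes. RMA corrects background, normalizes between arrays and summarises probes. Its version and settings are not stated in the labels. The number of arrays limits the precision.

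Of 54630 probe sets, 41091 carried 1 gene symbol, 1801 several and 11721 none (platform annotation). Of those with 1, 41037 were named through the gene number, and the brightest probe set per gene gave 19775 genes. Groups were compared with limma 3.58.1 in R 4.3.3 (lmFit, eBayes, 2-sided, Benjamini-Hochberg over all genes, threshold 0.05), with no filter on dim genes. Changes are microvesicles minus cells, ± SE. Values of all arrays are given for non-overlapping members past the threshold with a higher group mean of at least 6 and 1 direction under all planned scalings (the 8 largest falls of 9, and 0 rises), for ABCB1, ABCG2, ABCB10 and ABCA1 whatever their values, and for ABCG1, chosen after its values were seen. Up to 2 rises and 2 falls are named per partner list. The members, lists and alternatives were chosen with earlier results of these data known. On simulated data with 19775 genes the test recovered 3, 25, 45 and 50 of 50 genes changed by 0.5, 1, 2 and 3, with 13 false calls. Only those genes were changed there, with independent noise and no trend by level, whereas 66.6% of genes passed in the deposited values. Recovery and false calls in the deposited values may therefore differ. Alternatives were the replicate number as a block, median centring, a second quantile normalization, loess over genes (span 0.4) and over all probe sets (the last chosen after seeing the data), the mean of probe sets, a dim filter at 4.5, a variance trend with robust fit, and leaving out each array.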

Additional observations from a re-analysis of the deposited data

Results flagged for a closer look

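Of 84 groups of 5 arrays (42 ABC genes in each group), 3 held 1 array far from the other 4 by Dixon's criterion, where chance gives about 1 in 20. ABCA7 stood at 6.36 in cells replicate 5, against 5.79 to 5.88 in the other cell arrays. ABCC11 stood at 3.52 in cells replicate 1, against 3.83 to 3.93 in the others. ABCA13, whose rise in microvesicles is given above, stood at 4.02 in microvesicles replicate 4, against 2.01 to 2.52 in the other 4.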

How the results depend on the processing

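The counts of ABC genes past the threshold stayed within 1.5 times of 29 with the replicate block, median centring, the mean of probe sets, the variance trend with robust fit and each array left out (27 to 31, with 14 to 18 higher and 13 to 15 lower). They moved after loess (16, with 4 higher), after loess over all probe sets (16, with 6 higher), after a second quantile normalization (12, with 3 higher and 9 lower) and with genes under a mean of 4.5 left out (16 of the 20 members tested, 3 higher). Over all genes, where the deposited values gave 13179, loess gave 8212 (3805 higher), the second quantile normalization 7701 (4001 higher and 3700 lower), the dim filter 8286 (2373 higher) and loess over all probe sets 3610 lower. Among partner genes higher calls were 20, 23, 20 and 7 after loess, loess over all probe sets, quantile normalization and the dim filter, and lower calls 22, 20 and 21 after the first 3. Leaving out each array gave 11664 to 13411 calls over all genes and 56 to 64 among partners. Fewer genes were tested under the dim filter, and for the others the cause was not tested.

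Signs turned for these changes. After loess they were ABCA6 -0.46, ABCB1 -0.035, ABCB4 -0.21, ABCB5 -0.25, ABCB10 0.0050, ABCC2 -0.11, ABCC9 -0.26, ABCC12 -0.25, ABCF3 0.35, ABCG2 -0.22 and ABCG5 -0.10. After loess over all probe sets they were ABCA3 0.0049, ABCA6 -0.43, ABCA7 0.24, ABCB4 -0.10, ABCB5 -0.012, ABCB10 0.076, ABCC9 -0.15, ABCC12 -0.13, ABCF3 0.51, ABCG2 -0.071 and ABCG5 -0.016. After a second quantile normalization they were ABCA6 -0.34, ABCB4 -0.12, ABCB5 -0.11, ABCB10 0.036, ABCC2 -0.041, ABCC9 -0.19, ABCC12 -0.19, ABCF3 0.39, ABCG2 -0.14 and ABCG5 -0.051. With the mean of probe sets they were ABCA4 0.35, ABCB8 -0.083 and ABCC8 0.47, and without microvesicles replicate 1 ABCA4 (0.058). PELO turned with the mean of probe sets (0.032), and PIM1 after loess (0.030) and loess over all probe sets (0.11). Of the ABC genes and the partners named above whose sign turned, ABCA3, ABCB10, ABCG5, PELO and PIM1 had passed in the deposited values. Signs of partners not named above also turned in some settings.

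Same-numbered cell and vesicle arrays deviated together with correlations of -0.03 to 0.12, not all above 0.1, so the numbers were not taken as pairs. Cell replicates 1, 3, 4 and 5 correlated best with the vesicle array of their own number. Vesicle replicates 3, 4 and 5 did so with the cell array, and the other samples did not. The labels do not say whether same-numbered arrays share a culture. With the replicate block 28 ABC genes passed, 15 higher and 13 lower, and ABCA3 lost its call (adjusted p = 0.0535), as did PEX16 (0.0549) and LYRM4 (0.0633). Values near or below the array median limit the size of changes of dim genes.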

Other observations

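Some probe sets for ABC sequences carry several symbols, or a pseudogene symbol outside the naming rule, and were left out of the counts. The pseudogene ABCC13 met the rule and was counted. Of 5 such probe sets 1 fell, 1 rose (0.89 ± 0.18, limma adjusted p = 0.000943, from a mean of 2.08 in cells) and 3 did not pass. The pseudogene ABCA11P had group means of 5.77 ± 0.37 and 4.42 ± 0.89 (cells and microvesicles, SD, n = 5 each), a change of -1.35 ± 0.36 (limma adjusted p = 0.00548 over all probe sets). The pseudogene ABCA17P changed by 0.20 ± 0.22 (limma adjusted p = 0.433). The probe set shared by ABCB4 and ABCB1 changed by 0.098 ± 0.25 and the one shared by ABCB8 and ASIC3 by 0.068 ± 0.17, and neither passed (limma adjusted p = 0.740 and 0.735).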
